A study of Maylandia zebra with 2 samples.

Results

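Fibroblast growth factor (FGF) signalling was described through 49 of the 28622 annotated features of the cichlid *Maylandia zebra*, matched by gene name. These are all features whose symbol names a numbered FGF, an FGF receptor, a Sprouty or Spred protein, Etv1, Etv4 or Etv5, or Dusp6. By role they comprise 23 secreted ligands, 7 intracellular FGFs, 4 receptors, 2 decoy receptors, 9 feedback inhibitors, 3 target transcription factors and 1 feature that matches by name only, *fgfr1op2*. In the nuclei kept by the authors they held 4430 UMIs (unique molecular identifiers, each standing for 1 counted RNA molecule), or 0.311% of the total.

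FGF ligands are secreted proteins that bind heparan sulfate and activate receptor tyrosine kinases on nearby cells, and the signal runs through RAS and ERK to the nucleus. There it raises the ETS factors of the Etv1, Etv4 and Etv5 group together with its own brakes, the Sprouty and Spred proteins and the ERK phosphatase Dusp6. In the mouse tooth germ, ligands pass in both directions between dental epithelium and mesenchyme, and Fgf3 and Fgf10 from the mesenchyme act on receptors of the epithelium. Taste buds and fish replacement teeth both arise from oral epithelium.

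The tissue was soft oral lamina lying next to the replacement teeth, taken from the upper jaw and from the lower jaw of Lake Malawi cichlids, with 1 library per jaw. Nuclei were stained with DAPI, sorted as single stained nuclei and counted with 10x Genomics V3 chemistry. The deposited matrix pools both jaws: 809 barcodes carry suffix 1 and 572 carry suffix 2, which jaw a suffix stands for is not stated, and 1 barcode sequence occurs in both sets. All nuclei were therefore described as 1 pooled sample with no replicates and no test, and the suffix sets were set side by side. The authors' classes were built from expression, these genes included, so a class against the rest is a description.

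The 1296 kept nuclei held 1423040 UMIs. The Epithelial class had 808 nuclei and 918679 UMIs, the Immune class 266 and 251105, the Pigmented class 98 and 91398, the Mesenchymal class 85 and 110189, the class named Mature TB (taste bud) 21 and 25210, and the class named Immature TB 18 and 26459. Levels are CPM, UMI counts scaled to the same total in every class, and ratios set the CPM of a class against that of all other kept nuclei. A count of 3 UMIs, used as the floor where a gene had none, equals 3.27 CPM in Epithelial, 27.2 in Mesenchymal and 113 in Immature TB nuclei. Values in parentheses are exact 95% intervals, which cover counting error only. Each label was checked against markers, where the measured features past 2-fold in their own class were 6 of 7 for Epithelial, 10 of 10 for Mesenchymal and 6 of 7 for Immune nuclei. The Pigmented label was not borne out: of 5 measured pigment features only *mitfa* was called at least 2-fold higher there. Of the macrophage features, 4 of 4 measured were, at a summed 4223 CPM against 67.5 in Epithelial nuclei. Among these, *csf1ra* had 23 of its 32 UMIs in the Pigmented class and reached 10 UMIs only through it. No UMI was read there for 10 of 14 pigment features, but most of those had at most 2 UMIs over all kept nuclei. *ltk* had none of its 25 UMIs there, and *dct* and *pnp4a* had 1 of 22 each. *oca2*, with 2 of 15, stood above the other nuclei in CPM but under the 3 UMIs that a higher call needs. The Pigmented class is called cluster 5, its only cluster, in what follows. Of 5 measured taste bud features, 3 were at least 2-fold higher in Mature TB, and only *sox2* was in Immature TB, where *trpm5*, *calb2a* and *PLCB2* had no UMI. These genes lay mainly in Mature TB nuclei (*calb2a* with 107 of 111 UMIs, *PLCB2* with 28 of 31 and *trpm5* with 26 of 30). They reached 10 UMIs only through Mature TB nuclei, so their higher calls there lend that label no independent check. Their absence from a class named immature likewise cannot decide on its label. *sox2* had 70 of its 257 UMIs in Immature TB nuclei. The name Immature TB is therefore kept only as the authors' name for cluster 11, which this marker list cannot settle.

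Of the 49 features, 19 were measured with at least 10 UMIs, 11 had fewer and 19 had none. Receptors held most of the signal with 3524 UMIs, target factors held 240, feedback genes 239, decoy receptors 193, secreted ligands 169 and intracellular FGFs 50. UMI totals of different genes are not compared as levels, because no gene lengths of the files' build were used.

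**Figure D1:**
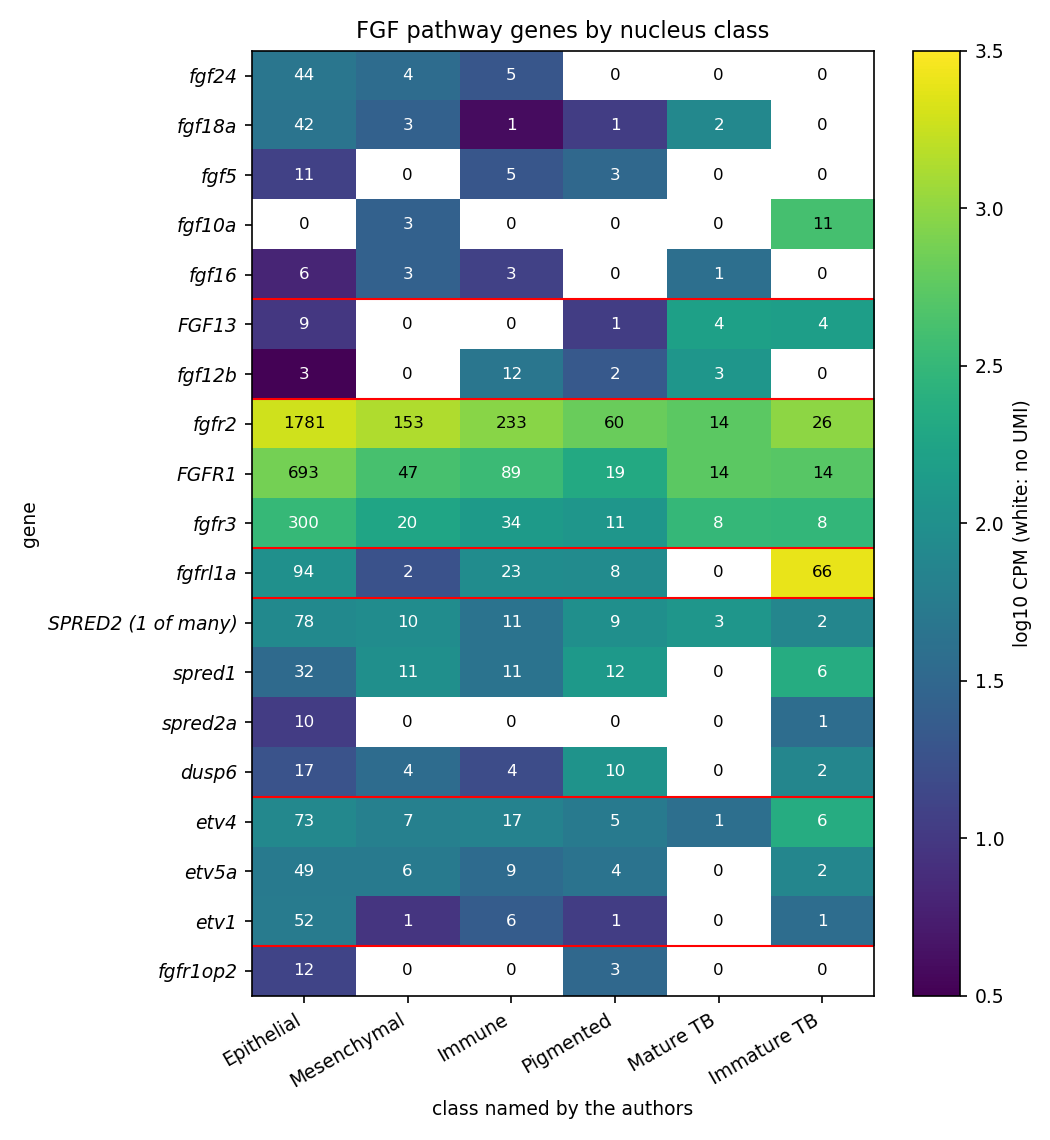
Heat map of the 19 measured FGF pathway genes (rows, ordered by role and separated by red lines) by class (columns). Colour gives log10 CPM, to be read along a row, numbers give UMIs, and white cells had no UMI. In the Immature TB column *fgf10a* (11 UMIs) and *fgfrl1a* (66 UMIs) are the brightest cells of their rows.

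Counts of members past a 2-fold ratio were read against the same count over all 12230 measured features. In the Epithelial class 8 of 19 members were at least 2-fold higher, where 14.1% of all features were. These were *fgf18a*, *fgf24*, *fgfr2*, *FGFR1*, *fgfr3*, *etv1*, *spred2a* and *fgfr1op2*, and the 3 receptors passed narrowly. Epithelial nuclei held 42 of 49 UMIs of *fgf18a*, 44 of 53 of *fgf24* and 52 of 61 of *etv1*. They also held 10 of 11 UMIs of *spred2a* and 12 of 15 of *fgfr1op2*. These members, unlike the receptors, reached 10 UMIs only through this class. The intervals of *spred2a* (0.781–238) and *fgfr1op2* (0.593–12.1) held 1. Within suffix 2 alone, 5 members passed. For counts within a suffix set, here and below, the 10 UMI minimum was applied again inside that set. Fewer members can reach it there, and the share over all features was not counted. A smaller count in a suffix set is therefore not read as a change in the members. Of the 17 members deep enough to be called lower, 5 were at least 2-fold lower (*fgf10a*, *fgf16*, *fgf12b*, *spred1* and *dusp6*), near the 20.4% of all features, and within suffix 1 alone 2 were. In Immature TB nuclei 5 of 19 were at least 2-fold higher (*fgf10a*, *fgfrl1a*, *FGF13*, *spred1* and *etv4*) against 6.78% of all features, and 0 of 3 were lower against 25.1%. *fgf10a* reached 10 UMIs only through Immature TB nuclei, which held 11 of its 14 UMIs. In the Mesenchymal class 3 of 19 were higher (*fgf10a*, *fgf16* and *spred1*), near the 12.1% of all features, and 1 of 6, *fgfrl1a*, was lower against 20.9%. There *fgf10a* and *fgf16* had 3 UMIs each, the fewest that a higher call allows. Their ratios of 3.25 (0.582–12.3) and 3.57 (0.632–13.9) had intervals that held 1. Within suffix 1 alone 0 members with at least 10 UMIs in that set were higher. There *fgf16*, under that minimum, stood at 5.73 (0.891–29.5). In the Immune class 1 of 19 was higher, *fgf12b*, against 13.6%, and 3 of 12 were lower (*fgf24*, *fgf18a* and *fgfr3*) against 16.3%. As 12 of its 20 UMIs lay there, *fgf12b* reached 10 UMIs only through this class. With TMM factors in place of total UMIs, 7 of 12 were lower there against 19.2%, with *FGFR1*, *fgfr2*, *etv1* and *SPRED2* (1 of many) added. In cluster 5, 4 of 19 were higher (*dusp6*, *spred1*, *fgf5* and *fgfr1op2*) against 13.8% and 3 of 6, the receptors, were lower against 30.0%. Of these, *fgf5* at 2.73 (0.510–9.54) and *fgfr1op2* at 3.64 (0.660–13.5) rested on 3 UMIs each, with intervals that held 1. In Mature TB nuclei 2 of 19 were higher, *FGF13* and *fgf12b*, against 7.08%, and 1 of 3, *fgfr2*, was lower against 31.9%. The median log2 ratio of the 19 members was 0.29 in the Epithelial class beside −0.04 over all features, 0.21 beside 0.08 in the Mesenchymal class and −0.54 beside −0.03 in the Immune class. For medians, here and below, a count of 0 was set to the floor. In the Mesenchymal class *spred2a*, *fgf12b*, *fgfr1op2*, *fgf5* and *FGF13* had no UMI and so entered at ratios from 1.79 to 3.25. The positive sign of that median follows from the floor and is not read.

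Secreted ligands were sparse in every class. Of 23 ligand features, 13 had no UMI in any kept nucleus, which allows up to 2.11 CPM each: *fgf1a*, *fgf1b*, *fgf4*, *fgf6a*, *fgf6b*, *fgf7*, *fgf8a*, *fgf8b*, *fgf17*, *fgf19*, *fgf20a*, *fgf21* and *fgf23*. The neighbours *fgf19*, *fgf4* and *fgf3*, which follow one another among protein-coding genes in the RefSeq annotation (assembly Mzebra_GT3a), had 0, 0 and 3 UMIs. Ligands with few UMIs were *fgf22* with 9, of which 5 lay in Immune and 3 in Epithelial nuclei, *fgf2* with 5, of which 3 lay in Mesenchymal nuclei, *fgf10b* with 3 and *fgf20b* with 1. *fgf3*, a mesenchymal ligand in the mouse tooth germ, had 2 of its 3 UMIs in Immature TB nuclei. Summed over all ligands, the Epithelial class stood at 121 CPM and a ratio of 1.05 (0.758–1.47), and the Mesenchymal class at 145.2 CPM and 1.25 (0.695–2.09). Immature TB nuclei stood highest at 529 CPM, with 14 ligand UMIs in 5 nuclei and a ratio of 4.77 (2.55–8.24), or 5.81 (2.69–11.2) in suffix 1 and 3.28 (0.868–8.78) in suffix 2. Of these UMIs, 11 were of *fgf10a*, and without that gene the Immature TB ratio was 1.04 (0.212–3.103).

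The ligands with the most UMIs in the epithelium belong to the FGF8 subfamily. *fgf24* (ENSMZEG00005002819), a fish ligand known in zebrafish for pectoral fin outgrowth, had 44 UMIs in Epithelial, 4 in Mesenchymal, 5 in Immune and none in the other nuclei. Its Epithelial ratio was 2.68 (1.29–6.25), from 2.30 (0.896–6.95) in suffix 1 to 3.37 (1.02–17.51) in suffix 2. *fgf18a* (ENSMZEG00005000524), whose mouse counterpart acts in skeletal growth, had 42 UMIs in Epithelial, 3 in Mesenchymal, 1 in Immune, 1 in cluster 5 and 2 in Mature TB nuclei. Both genes were thus read mainly in epithelial nuclei, where 18 of the *fgf18a* UMIs carried suffix 1 and 24 carried suffix 2. *fgf5*, of the FGF4 subfamily, had 11 UMIs in Epithelial, 5 in Immune and 3 in cluster 5 nuclei, and *fgf16*, of the FGF9 subfamily, had 6 in Epithelial, 3 in Mesenchymal, 3 in Immune and 1 in Mature TB nuclei. Neither showed a clear place: the 3 Immune UMIs of *fgf16* came from 1 nucleus, and the ratio of *fgf5* in cluster 5 was 1.04 in suffix 1 and 10.7 in suffix 2, from 1 and 2 UMIs.

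*fgf10a* (ENSMZEG00005018005), which codes for a ligand of the FGF7 subfamily, had the highest ratio in a class among the measured ligands. It had 11 UMIs in Immature TB nuclei, 3 in Mesenchymal nuclei and none in the other 4 classes, and 0 of 808 Epithelial nuclei held it. Its level was 416 CPM in Immature TB and 27.2 CPM in Mesenchymal nuclei, and the Immature TB ratio was 194 (51.1–1080). By suffix set it was 404 (54.2–17942) in suffix 1 and 83.6 (9.57–1000.4) in suffix 2. The 11 UMIs came from 4 of 18 nuclei, with at most 4 in 1 nucleus, and 8 carried suffix 1 and 3 suffix 2. They were thus spread over both suffix sets, but over very few nuclei.

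Receptors were read in every class and were highest in the epithelium. *fgfr2* (ENSMZEG00005010727), whose mouse product is the main receptor of Fgf10, had 1781 UMIs in Epithelial, 153 in Mesenchymal, 233 in Immune, 60 in cluster 5, 14 in Mature TB and 26 in Immature TB nuclei. These equal 1939, 1389, 928, 656, 555 and 983 CPM. In the order of classes the step from Epithelial to Mesenchymal was 1.40 (1.18–1.66) and that from Immune to cluster 5 was 1.41 (1.06–1.91), and the intervals of the other neighbouring steps held 1. *FGFR1* (ENSMZEG00005007656) stood at 754 CPM in Epithelial, 427 in Mesenchymal, 354 in Immune, 208 in cluster 5, 555 in Mature TB and 529 in Immature TB nuclei, from 693, 47, 89, 19, 14 and 14 UMIs. *fgfr3* (ENSMZEG00005002787), a receptor best known as a brake on bone growth, stood at 327, 182, 135, 120, 317 and 302 CPM in the same order, from 300, 20, 34, 11, 8 and 8 UMIs. Epithelial nuclei thus led for all 3 genes, and for *FGFR1* and *fgfr3* the interval of their step over the next class, Mature TB, held 1. *fgfr4* had no UMI.

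The Epithelial ratio was alike for the 3 receptors, at 2.01 (1.82–2.23) for *fgfr2*, 2.08 (1.76–2.46) for *FGFR1* and 2.03 (1.59–2.63) for *fgfr3*. Their sum stood at 3020 CPM, a ratio of 2.03 (1.87–2.20), which was 2.01 in suffix 1 and 2.04 in suffix 2. In the Mesenchymal class the sum stood at 1997 CPM, a ratio of 0.793 (0.689–0.910). There the suffix sets parted, at 0.927 (0.783–1.09) and 0.601 (0.456–0.778), with *fgfr2* at 1.05 and 0.601. Thinned to 500 UMIs per nucleus, 55.9% of Epithelial, 45.5% of Mesenchymal, 26.9% of Immune, 21.0% of cluster 5, 14.3% of Mature TB and 33.3% of Immature TB nuclei had an *fgfr2* UMI. Unthinned, with shares that follow depth, these were 69.3%, 58.8%, 41.7%, 32.7%, 28.6% and 38.9%. Thinning left out 114 Epithelial, 8 Mesenchymal, 43 Immune, 17 cluster 5 and no Mature or Immature TB nuclei, and before it the median depth was 840.5, 986, 750.5, 810, 1138 and 1017.5 UMIs in the order above.

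Keratin RNA was also read outside the epithelium, so the receptors' levels there were set beside it. Against the Epithelial class, *krt5* stood at a ratio of 0.348 (0.318–0.379) in Mesenchymal nuclei, where *fgfr2* stood at 0.716 (0.603–0.845). In Immune nuclei *krt5* stood at 0.300 (0.281–0.319) and *fgfr2* at 0.479 (0.416–0.549), and in cluster 5 they stood at 0.239 (0.213–0.268) and 0.339 (0.257–0.438). In Mature TB nuclei they stood at 0.159 (0.120–0.207) and 0.286 (0.156–0.482), and in Immature TB nuclei at 0.439 (0.373–0.512) and 0.507 (0.330–0.745). The intervals of *fgfr2* and *krt5* were apart in Mesenchymal and Immune nuclei and overlapped in the other 3 classes. They were apart for *krt15*, *epcam* (1 of many) and *ppl* as well, but both *tp63* (1 of many) features overlapped *fgfr2* in Immune nuclei, at 0.365 (0.287–0.459) and 0.449 (0.231–0.801). In Mesenchymal nuclei those features stood at 0.339 (0.232–0.480) and 0.787 (0.367–1.504), the second again overlapping. The interval of *FGFR1* was apart from that of *krt5* in Mesenchymal, Immune and Mature TB nuclei, and that of *fgfr3* in Mature TB nuclei alone. In Mature TB nuclei *FGFR1* stood at 0.736 (0.4004–1.24) and *fgfr3* at 0.972 (0.416–1.94), from 14 and 8 UMIs. There the interval of *epcam* (1 of many), at 0.221 (0.0885–0.456), overlapped both. The keratin comparison thus did not hold for every epithelial marker, and the part of free RNA in the remaining level was not tested. Cluster 9, 1 of 3 Immune clusters, with 35 nuclei and 21723 UMIs, had higher *fgfr2* and *FGFR1* levels than the others. Its *fgfr3* level, 368 CPM (159–726) from 8 UMIs, overlapped those of cluster 2 (77.6–192) and cluster 8 (26.3–189). In cluster 8 *fgfr2* was at 0.309 (0.217–0.427) of the Epithelial level and *krt5* at 0.387 (0.346–0.432), and in cluster 2 they were at 0.471 (0.397–0.556) and 0.272 (0.251–0.295). In cluster 9 *fgfr2* was at 1.02 (0.736–1.38), *FGFR1* at 1.10 (0.647–1.75) and *fgfr3* at 1.13 (0.482–2.25) of the Epithelial level. There *krt5* was at 0.264 (0.209–0.329) and *krt15* at 0.287 (0.192–0.413). The immune marker list stood at 1197 CPM in cluster 9, from 26 UMIs, 2297 in cluster 2 and 1651 in cluster 8. The epithelial marker list stood at 6123, 5985 and 7800 CPM in the same order of clusters. Cluster 9 was singled out after its values were seen.

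**Figure D2:**
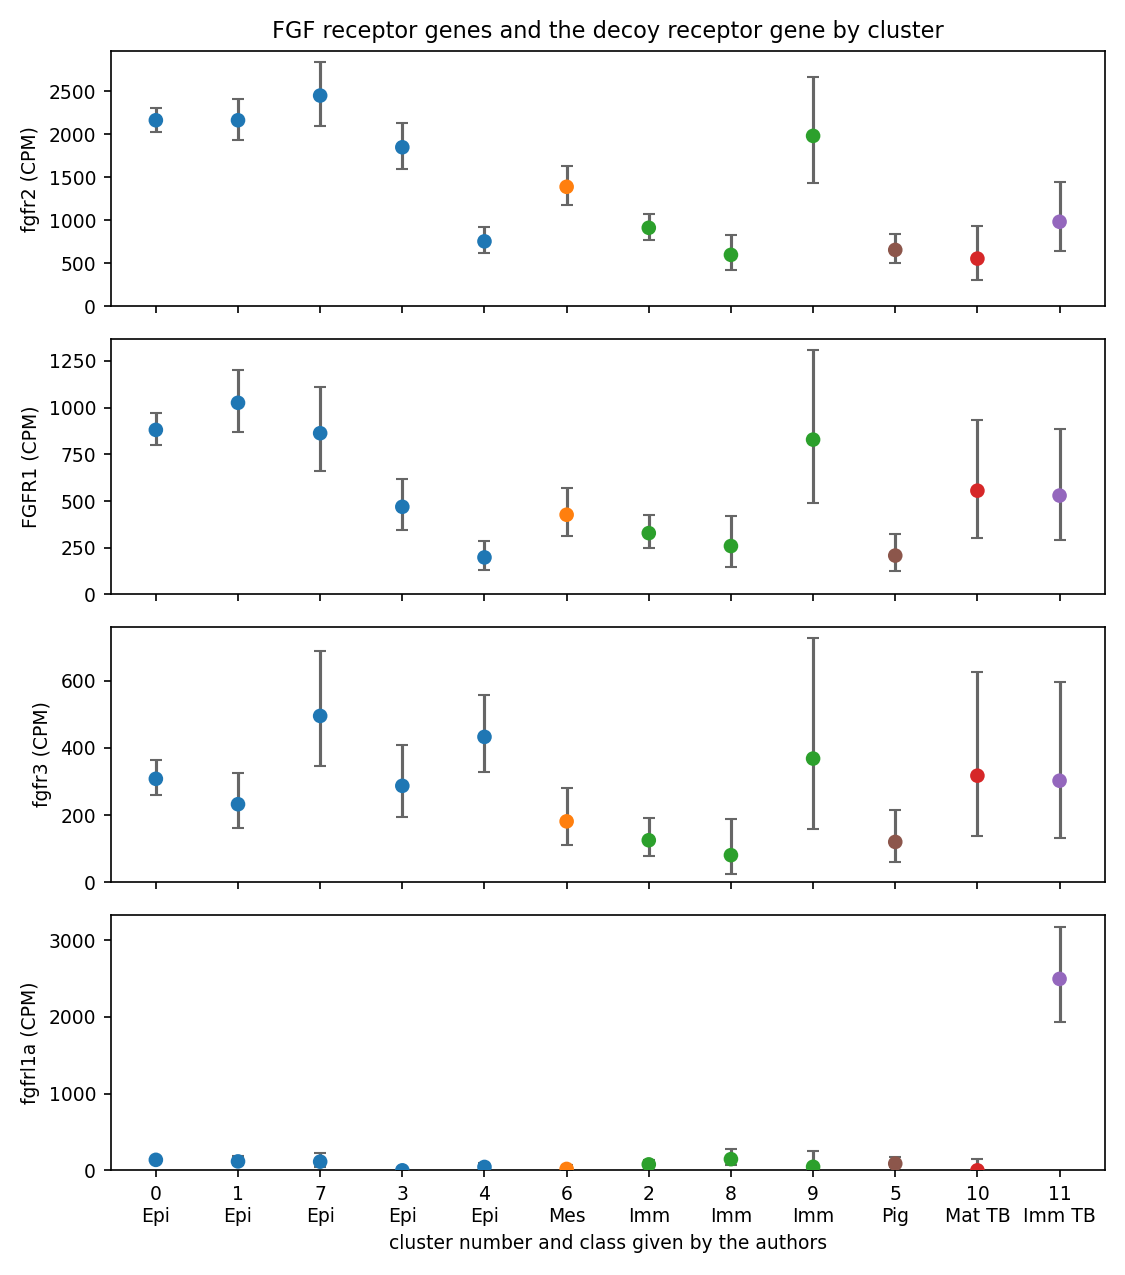
CPM of the receptor genes and *fgfrl1a* in each of the 12 deposited clusters, with exact Poisson 95% intervals as bars and clusters grouped by class. *fgfr2* is high in clusters 0, 1, 7, 3 and 9 and lower in epithelial cluster 4 (756 CPM), and *fgfrl1a* peaks in cluster 11, the Immature TB nuclei (2494 CPM).

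The mixture of receptors differed little between large classes, and its largest shift among the epithelial clusters was in cluster 4. Over the 3 receptors' UMIs, *fgfr2*, *FGFR1* and *fgfr3* took 64.2%, 24.98% and 10.8% in Epithelial nuclei, and in Immune nuclei they took 233, 89 and 34 of 356 UMIs, with 65.4% for *fgfr2* and 9.55% for *fgfr3*. In epithelial cluster 4, *fgfr3* took 31.2% (24.7–38.3, Clopper-Pearson), 59 of 189 UMIs, against 9.20% (7.80–10.7) in cluster 0, 6.80% (4.76–9.37) in cluster 1 and 11.03% in cluster 3. The share was above that of cluster 0 in both suffix sets, at 27.6% (20.2–36.0) in suffix 1 and 40.0% (27.0–54.1) in suffix 2. In level, *fgfr3* stood at 433 CPM (329–558) in cluster 4 and 308 CPM (259–363) in cluster 0, while *fgfr2* stood at 756 and 2161 CPM and *FGFR1* at 198 and 881 CPM. The shift in share thus went with low *fgfr2* and *FGFR1* more than with high *fgfr3*. In Mature TB nuclei *fgfr2* and *FGFR1* took 14 UMIs each of 36, or 38.9% (23.1–56.5).

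**Figure D3:**
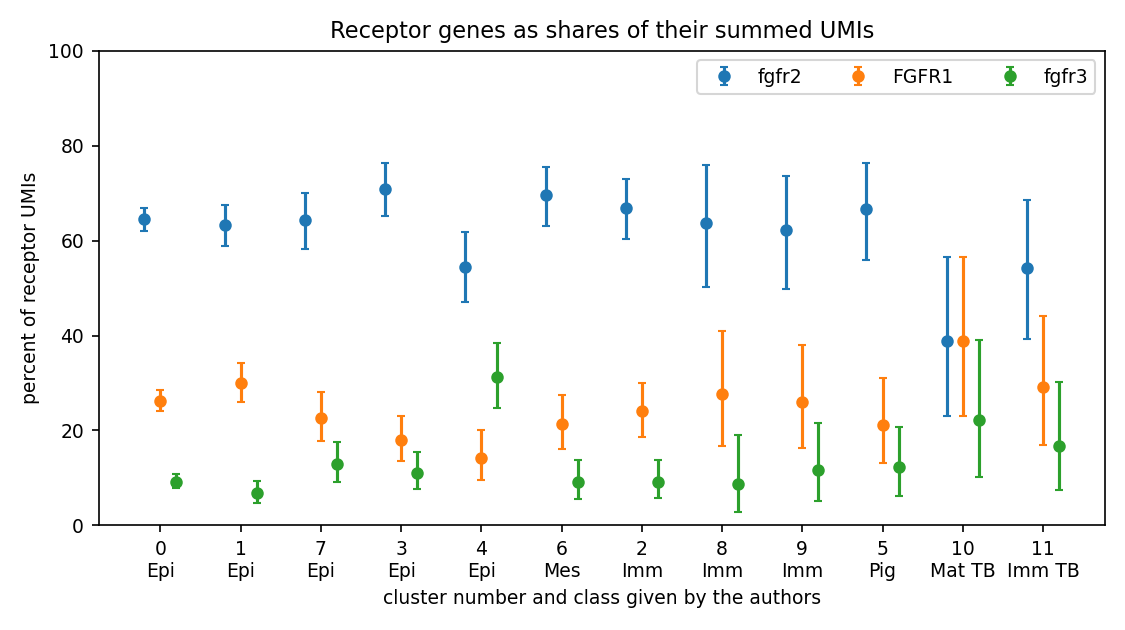
Share of *fgfr2*, *FGFR1* and *fgfr3* in the UMIs of the 3 receptor genes, in percent, by cluster. Cluster 4 has the largest *fgfr3* share of the epithelial clusters, 31.2%, and cluster 1 the smallest, 6.80%.

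*fgfrl1a* (ENSMZEG00005000881) codes for a receptor-like protein that binds FGF but lacks the kinase domain, and it was concentrated in Immature TB nuclei. It had 94 UMIs in Epithelial, 2 in Mesenchymal, 23 in Immune, 8 in cluster 5, none in Mature TB and 66 in Immature TB nuclei. These equal 102, 18.2, 91.6, 87.5, 0 and 2494 CPM, and the Immature TB ratio was 27.4 (20.1–37.2). The UMIs came from 11 of 18 nuclei, 61.1% (35.7–82.7), against 7.43% (5.71–9.46) of Epithelial and 0 of 21 Mature TB nuclei. Median depth was 1017.5, 840.5 and 1138 UMIs in these classes, and after thinning the Immature TB share was 55.6% and the Epithelial share 4.47%. Suffix 1 gave 43 UMIs and a ratio of 27.9 (18.7–40.9), and suffix 2 gave 23 UMIs and 26.1 (15.2–43.7). The gene was therefore high in both suffix sets, and the nucleus with the most UMIs, 16, held 24.2% of the class total. In the Mesenchymal class the ratio was 0.125 (0.0150–0.457). 3 Immature TB nuclei held both *fgfrl1a* and *fgf10a*, and no nucleus of another class held both. The second feature of the kind, *FGFRL1* (1 of many), had no UMI, and reads of near-identical copies can be split between such features.

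Feedback inhibitors were read at low counts, and the Sprouty genes had very few. *spry4* had 4 UMIs, *spry2* 1, *SPRY3* 1 and *spry1* none, and *spred3* had none. The Spred genes code for membrane-bound inhibitors of RAF activation. *SPRED2* (1 of many) had 78 UMIs in Epithelial, 10 in Mesenchymal, 11 in Immune, 9 in cluster 5, 3 in Mature TB and 2 in Immature TB nuclei. Its Epithelial ratio was 1.97 (1.10–3.71) in suffix 1 and 0.693 (0.378–1.30) in suffix 2, so no direction held across the suffix sets. *spred2a* had 10 of its 11 UMIs in Epithelial nuclei.

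*spred1* (ENSMZEG00005002606) went the other way from the receptors, with 32 UMIs in Epithelial, 11 in Mesenchymal, 11 in Immune, 12 in cluster 5, none in Mature TB and 6 in Immature TB nuclei. Its Epithelial ratio was 0.627 (0.333–1.18) in suffix 1 and 0.258 (0.106–0.597) in suffix 2, and its Mesenchymal ratio 1.19 (0.368–3.03) and 4.73 (1.56–12.1). The Epithelial ratio was thus under 1 in both sets, with an interval that held 1 in suffix 1, and the Mesenchymal excess came from suffix 2. The step from Immune down to Epithelial nuclei, 1.26 (0.572–2.56), had an interval that held 1. All 6 Immature TB UMIs carried suffix 1, in 4 nuclei. *dusp6* (ENSMZEG00005013337), the ERK phosphatase, had 17 UMIs in Epithelial, 4 in Mesenchymal, 4 in Immune, 10 in cluster 5 and 2 in Immature TB nuclei. In cluster 5 its ratio was 5.77 (1.82–15.99) in suffix 1 and 4.96 (1.18–16.1) in suffix 2. Cluster 5 was also the cluster of the macrophage markers, whose part in this value was not tested.

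Target factors followed the epithelium in part. *etv1* (ENSMZEG00005015398) had 52 of its 61 UMIs in Epithelial nuclei, 6 in Immune and 1 each in Mesenchymal, cluster 5 and Immature TB nuclei, a ratio of 3.17 (1.55–7.32). It was higher in Epithelial nuclei in both sets, at 6.23 (1.503–55.2) in suffix 1 and 2.07 (0.900–5.54) in suffix 2. *etv4* (ENSMZEG00005007459) had 73 UMIs in Epithelial, 7 in Mesenchymal, 17 in Immune, 5 in cluster 5, 1 in Mature TB and 6 in Immature TB nuclei. Epithelial nuclei showed no excess of it, at 0.902 (0.517–1.59) in suffix 1 and 1.46 (0.753–3.06) in suffix 2. *etv5a* (ENSMZEG00005020974) had 49, 6, 9, 4, 0 and 2 UMIs in the same order of classes, and its Epithelial ratio was 2.04 in suffix 1 and 0.768 in suffix 2. Of its 9 Immune UMIs, 5 lay in cluster 9, at 230 CPM (74.7–537). Summed, the target factors gave an Epithelial ratio of 1.45 (1.08–1.95) and the feedback genes 0.790 (0.606–1.03), and both roles together gave 1.05. The feedback sum stood at 1.08 (0.754–1.56) in suffix 1 and 0.532 (0.355–0.801) in suffix 2, so its direction did not hold across the sets.

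Intracellular FGFs, which are not secreted and bind voltage-gated sodium channels, lay outside the main epithelial pattern. *FGF13* (ENSMZEG00005006298) had 9 UMIs in Epithelial, 1 in cluster 5, 4 in Mature TB and 4 in Immature TB nuclei, with ratios of 15.8 (3.80–50.4) in Mature TB and 15.1 (3.61–48.0) in Immature TB nuclei. The 4 Mature TB UMIs came from 1 nucleus of suffix 1 and the 4 Immature TB UMIs from 2 nuclei, so the ratios rest on 3 nuclei. *fgf12b* (ENSMZEG00005024711) had 3 UMIs in Epithelial, 12 in Immune, 2 in cluster 5 and 3 in Mature TB nuclei. Its Immune UMIs came from 10 nuclei, 11 of the 12 in cluster 2. Its Immune ratio was 7.001 (2.63–19.7), from 5.27 (1.75–16.65) in suffix 1 to 16.6 (1.33–871) in suffix 2. The Mature TB ratio was 9.78 (1.84–33.8). *fgf11b* had 6 UMIs, *fgf11a* 5 and *fgf14* 1, and *fgf12a* and *fgf13b* had none. *fgfr1op2*, which shares a name with the receptor but is not an FGF receptor, had 12 UMIs in Epithelial and 3 in cluster 5 nuclei.

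Within the epithelium several members were higher in the clusters rich in the integrins that tie basal cells to the basement membrane. Clusters 0, 1 and 7 are rich in *itga6b* and *itgb4*, at 6.82 and 6.20 times the level of clusters 3 and 4, and this grouping was chosen after the values were seen. The rich clusters held 521 nuclei with a median of 976 UMIs, and the poor clusters 287 with a median of 649. Of 11 members deep enough, 6 were at least 2-fold higher in the rich clusters against 19.1% of all features, and of 15 members 1, *fgf5*, was lower against 15.5%. Deep enough for a higher call means enough UMIs in the rich clusters themselves, for members and all features alike. Members thus entered that count through the clusters where they could be high, and the count is a description only. *fgf18a* had 41 UMIs in the rich and 1 in the poor clusters, a ratio of 14.6 (2.47–589). *etv1* had 49 and 3, a ratio of 5.80 (1.87–29.1), and *fgfrl1a* had 88 and 6, a ratio of 5.21 (2.30–14.6). *fgf24* had 40 and 4, a ratio of 3.55 (1.28–13.7). The ligands *fgf18a* and *fgf24*, the decoy *fgfrl1a* and the target *etv1* were thus higher in the integrin-rich clusters. The direction was the same in both suffix sets for *fgf18a* (17 against 1 and 24 against 0 UMIs), *etv1* (4.47 and 6.89), *fgfrl1a* (6.83 and 3.88) and *fgf24* (4.99 and 2.26). In suffix 2 the intervals of *fgfrl1a* (0.998–33.2) and *fgf24* (0.553–19.9) held 1. Without cluster 3, *fgf24* stood at 2.68 (0.854–13.5), which also held 1.

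Receptors parted in the same comparison. *FGFR1* had 617 UMIs in the rich and 76 in the poor clusters, a ratio of 2.88 (2.27–3.71). *fgfr2* had 1485 and 296, a ratio of 1.78 (1.57–2.03), and *fgfr3* had 211 and 89, a ratio of 0.842 (0.654–1.09). The size of these ratios depended on which poor cluster was used. Without cluster 4, *fgfr2* stood at 1.19 (1.02–1.39), *FGFR1* at 1.94 (1.45–2.65) and *fgfr3* at 1.08 (0.737–1.65). Without cluster 3 they stood at 2.90, 4.60 and 0.719 (0.537–0.977). *fgfrl1a* had no UMI in cluster 3 and 6 in cluster 4, and without cluster 3 its ratio was 2.95 (1.302–8.25). *etv5a* had 43 and 6 UMIs, a ratio of 2.55 (1.08–7.32). Its ratio was 2.42 (0.899–8.14) in suffix 1 and 4.31 (0.689–179) in suffix 2. Without cluster 4 it was 3.31 (0.863–28.2) and without cluster 3 it was 2.16 (0.786–8.29), so each of these intervals held 1. *etv4* had 61 and 12 UMIs, a ratio of 1.81 (0.963–3.68), which was 4.70 without cluster 4 and 1.23 without cluster 3. *SPRED2* (1 of many) had 49 and 29 UMIs, a ratio of 0.600 (0.372–0.985), with 23 of the 29 in cluster 4 and a ratio of 1.26 without it and 1.08 in suffix 2. For *fgf5* the ratio of 0.426 (0.108–1.77) rested on 6 and 5 UMIs and was 0.925 without cluster 4.

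**Figure D4:**
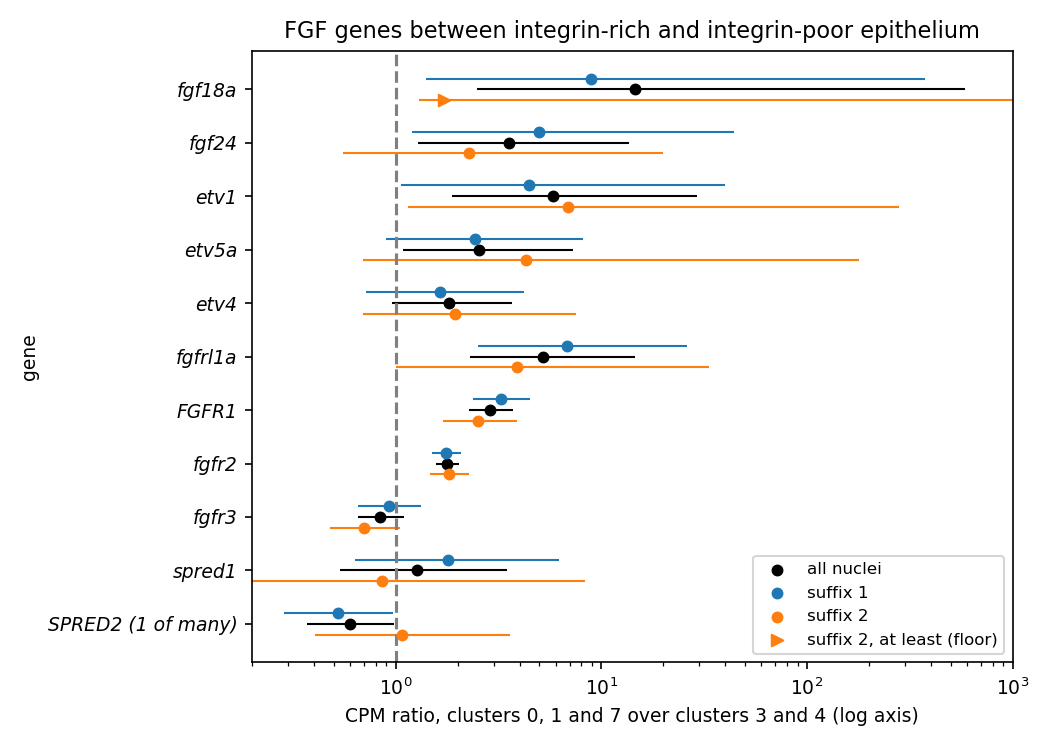
Ratio of CPM in clusters 0, 1 and 7 to that in clusters 3 and 4 (log axis) for selected members, over all epithelial nuclei and within each suffix set, with exact 95% intervals cut at 1000. An arrow marks a lower bound at the 3 UMI floor. *fgf18a* lies farthest to the right (14.6, from 1 UMI in clusters 3 and 4) and *fgfr3* lies near 1 (0.842).

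Other genes of the pathway were counted in lists of co-receptors and heparan sulfate enzymes (22 measured), of the RAS-ERK relay (29) and of ERK-responsive genes (22). In the Epithelial class 2, 2 and 4 of them, in that order, were at least 2-fold higher, where 14.1% of all features were. Of those deep enough to be called lower, 4 of 21, 6 of 29 and 3 of 20 were, against 20.4%. The medians of the Epithelial log2 ratios were 0.09, −0.20 and 0.31, beside −0.04 over all features.

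In the same order of lists, the Mesenchymal class had 2, 4 and 0 higher against 12.1% of all features, and 1 of 12, 1 of 20 and 2 of 12 lower against 20.9%. The Immune class had 2, 5 and 1 higher against 13.6%, and 1 of 16, 2 of 27 and 5 of 16 lower against 16.3%. Cluster 5 had 1, 7 and 4 higher against 13.8%, and 3 of 10, 3 of 17 and 5 of 12 lower against 30.0%. The relay list had its largest number of higher genes in cluster 5, with 7 of 29. The share over all features was also higher there, at 13.8%, than in Immature TB nuclei, with 5 of 29 against 6.78%. Mature TB nuclei had 2, 3 and 0 higher against 7.08%, and 0 of 3, 1 of 6 and 2 of 4 lower against 31.9%. Immature TB nuclei had 3, 5 and 1 higher against 6.78%, and 1 of 3, 1 of 6 and 2 of 4 lower against 25.1%.

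The genes named next were picked as the 3 highest ratios of each list, so their high values follow from the choice. The extracellular sulfatases trim heparan sulfate, the partner of FGF at its receptor. *sulf2a* had 18 of 22 UMIs in Immune nuclei, a ratio of 21.0 (6.92–85.3), and *sulf1* had 10 of 42 in Immature TB nuclei, a ratio of 16.5 (7.23–34.4). The syndecan gene *sdc2* was 8.17-fold higher (4.65–14.1) in Mesenchymal nuclei. Of the relay, the adaptor gene *shc2* was 7.94-fold higher (2.82–21.1) in Mesenchymal nuclei from 8 UMIs, the phosphatase gene *ptpn11b* 6.76-fold (4.11–11.3) in Immune nuclei and the ubiquitin ligase gene *cbl* 4.86-fold (3.55–6.56) in cluster 5. Of the ERK-responsive genes, the phosphatase genes *dusp4* and *dusp1* were 15.8-fold (6.64–37.8) and 5.69-fold (4.02–7.95) higher in cluster 5, where *dusp6* was also higher. The ETS factor gene *elf3* was 4.67-fold higher (2.99–7.63) in Epithelial nuclei. *sulf2a*, *shc2* (8 of 20 UMIs) and *dusp4* (13 of 25 UMIs) reached the 20 UMIs needed for naming only through the class where they were high.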

How the data were processed

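Per the file headers and the submitters' processing notes, raw UMI counts per feature and barcode were deposited by the authors as made with Cell Ranger 3.1.0. The genome build is not given in the sources used here, nor is the strand setting of the counting. The authors' cluster, class and kept mark were used as deposited; 85 barcodes, 41 of them with over 2500 genes, were left out by that mark. No doublet caller was run here.

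Counts were summed over kept nuclei per class and cluster. Features with at least 10 UMIs counted as measured. A feature was called higher where its CPM ratio was 2 or more and it had 3 or more UMIs there, and lower where the fall reached 2-fold with counts under 3 set to 3. CPM carry exact Poisson, ratios exact conditional and shares Clopper-Pearson intervals. Members with at least 10 UMIs were described by class, and of each pathway list the 3 highest ratios among genes with at least 20 UMIs were named. Members and lists were chosen with earlier results of these data known. Symbols of 39 members matched RefSeq. Ratios were tested on simulated independent Poisson counts, which leave out any gathering of UMIs in few nuclei. Alternatives were each suffix set, depth limits on nuclei, TMM factors, a mean over nuclei, other feature filters and, chosen after seeing the data, nuclei without cluster 9, epithelial splits, TMM factors for the other 4 classes and ligands without *fgf10a*. The tools were R 4.3.3 with edgeR 4.0.16 (TMM factors only), and pandas 2.3.3, scipy 1.17.1 and numpy 2.4.6 in Python 3.11.15.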

Additional observations from a re-analysis of the deposited data

Results flagged for a closer look

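The 85 barcodes that the authors did not keep also held FGF pathway UMIs, and no comparison above uses them. Ligand genes had 79 UMIs there, or 117 CPM against 119 in kept nuclei. Receptor genes had 1965 UMIs, or 2907 CPM (2780–3039) against 2476, and feedback and target genes had 210 UMIs, or 311 CPM against 337. They are listed because those barcodes enter no comparison. The limit of 3 UMIs that a count of 0 allows is a low bar at 675936 UMIs, and nothing is read from passing it.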

How the results depend on the processing

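No paired analysis was possible because each jaw has 1 library and no nucleus is mapped to a jaw. Of the alternative values of the role sums and member counts, 71 stayed close and 15 did not, where close means inside the 95% interval of the main sum or within 1.5 times of the main count. The ligand sum in Epithelial nuclei was 0.751 without *fgf24*. The receptor sum there was 2.46 with TMM factors, and the feedback and target sum was 0.850 in suffix 2. The receptor sum in Mesenchymal nuclei was 0.927 in suffix 1, 0.601 in suffix 2 and 0.671 without *fgfr2*. Members at least 2-fold higher in Epithelial nuclei numbered 5 in suffix 2 and 5 without the 20% of nuclei with the fewest UMIs. Those lower numbered 2 in suffix 1, 3 in suffix 2, 2 of 17 with TMM factors (against 16.5% of all features) and 3 from 20 UMIs. In Mesenchymal nuclei, those higher numbered 0 in suffix 1 and 1 from 20 UMIs, and those lower 0 in suffix 2. Apart from TMM factors, no share over all features was counted for these settings, so the counts are not read as a change in the members. For *fgf16* the Epithelial ratio of 0.471 turned to 1.76 in suffix 2. The cause was not tested.

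TMM factors moved every log2 ratio by 0.27 in Epithelial, −0.15 in Mesenchymal, −0.10 in Immune, −0.18 in cluster 5, −0.55 in Mature TB and −0.65 in Immature TB nuclei. With them, *fgf10a* in Immature TB stood at 123 and *fgfrl1a* at 17.46, and these calls changed. *etv4* in Immature TB fell under 2-fold at 1.96, as did *spred1* in Mesenchymal nuclei at 1.94. In Epithelial nuclei *dusp6* (0.564), *fgf16* (0.569) and *spred1* (0.531) were no longer 2-fold lower. Lower calls were added for *fgfr2* in Immature TB (0.390) and, in Immune nuclei, for *FGFR1* (0.492), *fgfr2* (0.498), *etv1* (0.474) and *SPRED2* (1 of many, 0.469). Ratios that were not past 2-fold turned for *fgfr3* in Mature TB (0.810) and Immature TB (0.720), and *etv5a* in Immature TB (0.988). Depth limits Mature and Immature TB nuclei most, since 3 UMIs there equal 119 and 113 CPM, so a 2-fold lower level could be called there for 3 members.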
